A study of Mus musculus with 6 samples.

Results

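The 41 genes described here encode the machinery of DNA replication and of entry into S phase. They were chosen as rows of the deposited count table that name replication licensing, polymerase, clamp loader, nucleotide supply or G1/S genes. The rule itself uses no measured value, but it was written with earlier results of these data known. The genes make up 41 of 24047 gene rows. They were compared between 3 kidney libraries (labelled double_pos, replicates 7, 8 and 22) and 3 spleen and bone marrow libraries (labelled double, replicates 2, 24 and 26). All 6 libraries came from wild-type mice of the strain labelled C5/Bl6, aged 8 to 10 weeks, with nephrotoxic nephritis, an antibody-driven injury of the glomeruli, and killed on day 13. The series used 10 mice and holds no healthy group. The labels do not say whether libraries of a group came from separate mice or from pools, so the p-values below speak only to how much these libraries vary, which may be technical. The markers behind the words double and double_pos are not named. Enrichment with the EasySep mouse monocyte kit and sorting are described for kidney cells only, so tissue and cell handling cannot be told apart.

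Before each S phase, the origin recognition complex, Cdc6 and Cdt1 load the MCM helicase onto chromatin, a step called licensing. Cdc45 and the GINS complex then switch the helicase on, and the polymerases, the sliding clamp PCNA and its loader RFC copy the DNA with deoxynucleotides made by enzymes such as ribonucleotide reductase. Many of these genes are transcribed by E2F factors when cyclin D and cyclin E kinases inactivate the RB proteins. Monocyte precursors divide in the bone marrow, and the monocytes that leave it are mostly not in cycle.

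Promoter windows from RefSeq (GRCm38.p6, 250 bases before to 50 bases after each annotated start) were found for 35 of the 41 genes. The deposited files use the build mm9, so these coordinates do not apply to it. An E2F motif, spelled TTTCCCGC, TTTGGCGC, TTTCGCGC or TTTGCCGC and searched on both strands, was present for 14 of the 35 genes (40%). The 35 genes have 42 windows in all, and a gene counts where any of its windows holds the motif. Among all 27025 genes with a window the share was 2.60%, and among the 8132 of them that were tested for expression it was 4.97%. A set of 20 mitosis genes, which act later in the cell cycle, held the E2F motif for 1 of 17 genes with a window (5.88%). The late cell cycle motif CHR (TTTGAA or TTCGAA, both strands) showed the opposite order between these lists, with 6 of 35 replication genes (17.1%) and 13 of 17 mitosis genes (76.5%). It was present for 21.7% of all genes and 16.6% of the tested genes. CCAAT boxes (both strands) were present for 20 of 35 replication genes (57.1%), 15 of 17 mitosis genes (88.2%), 41.1% of all genes and 43.3% of the tested genes. The E2F motif was found for 6 of 20 replication genes that were called lower in kidney (30%) and for 8 of 15 of those not called (53.3%), so the share was not higher among the called genes. A match is a description of the letters and not evidence of binding. The following 4 stretches belong to the called genes with a motif before the start and the smallest p-values. They are shown to let the E2F letters, in capitals, be seen in place.
Mcm5: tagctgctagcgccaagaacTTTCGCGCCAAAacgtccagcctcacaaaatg
Rfc3: acgtcgcacgcTTTCGCGCtc
Mcm6: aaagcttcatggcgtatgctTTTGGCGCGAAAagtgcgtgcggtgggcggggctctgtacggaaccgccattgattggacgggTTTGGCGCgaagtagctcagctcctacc
Hells: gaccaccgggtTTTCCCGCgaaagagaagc
The Mcm5 stretch (chr8:75109336-75109387, plus strand) holds 2 overlapping motifs on opposite strands, 142 and 146 bases before the start. The Mcm6 stretch (chr1:128359725-128359835, minus strand) holds 3 motifs between 40 and 103 bases before the start, of which a pair overlaps. Rfc3 (chr5:151651209-151651229, minus strand) and Hells (chr19:38930917-38930946, plus strand) hold 1 motif each, 3 and 55 bases before the RefSeq start. Both of these stretches lie wholly in the first exon of a GENCODE transcript that starts farther upstream, and so are kept to at most 30 bases.

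Library totals ran from 3492391 counts (kidney 22) to 9727489 (spleen and marrow 26). Levels below are CPM, the depth-scaled counts that edgeR gives with TMM factors, and fold changes with standard errors (SE) and adjusted p-values come from edgeR's quasi-likelihood test with Benjamini-Hochberg adjustment over 10626 tested genes, called at adjusted p under 0.05. The 10 monocyte markers had counts in every library. Lyz2 was at 36591, 49527 and 53871 CPM in spleen and marrow and 32061, 30678 and 29441 in kidney. Of the 10, 5 were called higher in kidney (Csf1r, Itgam, Cd14, Cx3cr1 and Fcgr1), beside 7.83% of all tested genes. Another 3 were called lower (Lyz2, Emb and Ly6c2), beside 5.9%. The edgeR adjusted p was 0.0342 for Lyz2 and 0.00149 for Ly6c2 (log2 fold change -3.11 ± 0.34 SE). Kidney libraries held more tubule RNA, with 8 markers summing to 203 to 1271 CPM against 0.574 to 1.23, and more of 8 tissue macrophage markers, at 19773 to 33569 against 1402 to 3143 CPM. The part of these other transcripts in the results below was not tested.

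As a group, the replication genes were lower in the kidney libraries. Their summed level was 2596, 1897 and 1974 CPM in spleen and marrow libraries 2, 24 and 26, and 435, 626 and 852 CPM in kidney libraries 7, 8 and 22. The groups did not overlap, and the sum was 0.189% to 0.253% of all counts in spleen and marrow against 0.0462% to 0.0831% in kidney. All 41 genes passed the filter on low counts. Of these, 24 were called lower (58.5%), beside 5.9% of all tested genes. None was called higher, beside 7.83% of all tested genes; at an unadjusted p under 0.05 the count of higher genes was also 0, as it was with DESeq2 and limma-voom, while 31 were lower. All 41 log2 fold changes were below zero, with a median of -1.70, against a median of 0.05 and 47.3% below zero for all tested genes. The 3 kidney values lay under the 3 spleen and marrow values for 34 of the 41 genes (82.9%), which was so for 18.8% of all tested genes. The shares of 5.9% (called lower) and 18.8% (no overlap) also stand beside the counts by role, for mitosis genes and for marker lists below. In bulk libraries, fewer cells in S phase and less replication RNA per cell cannot be told apart.

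**Figure D1:**
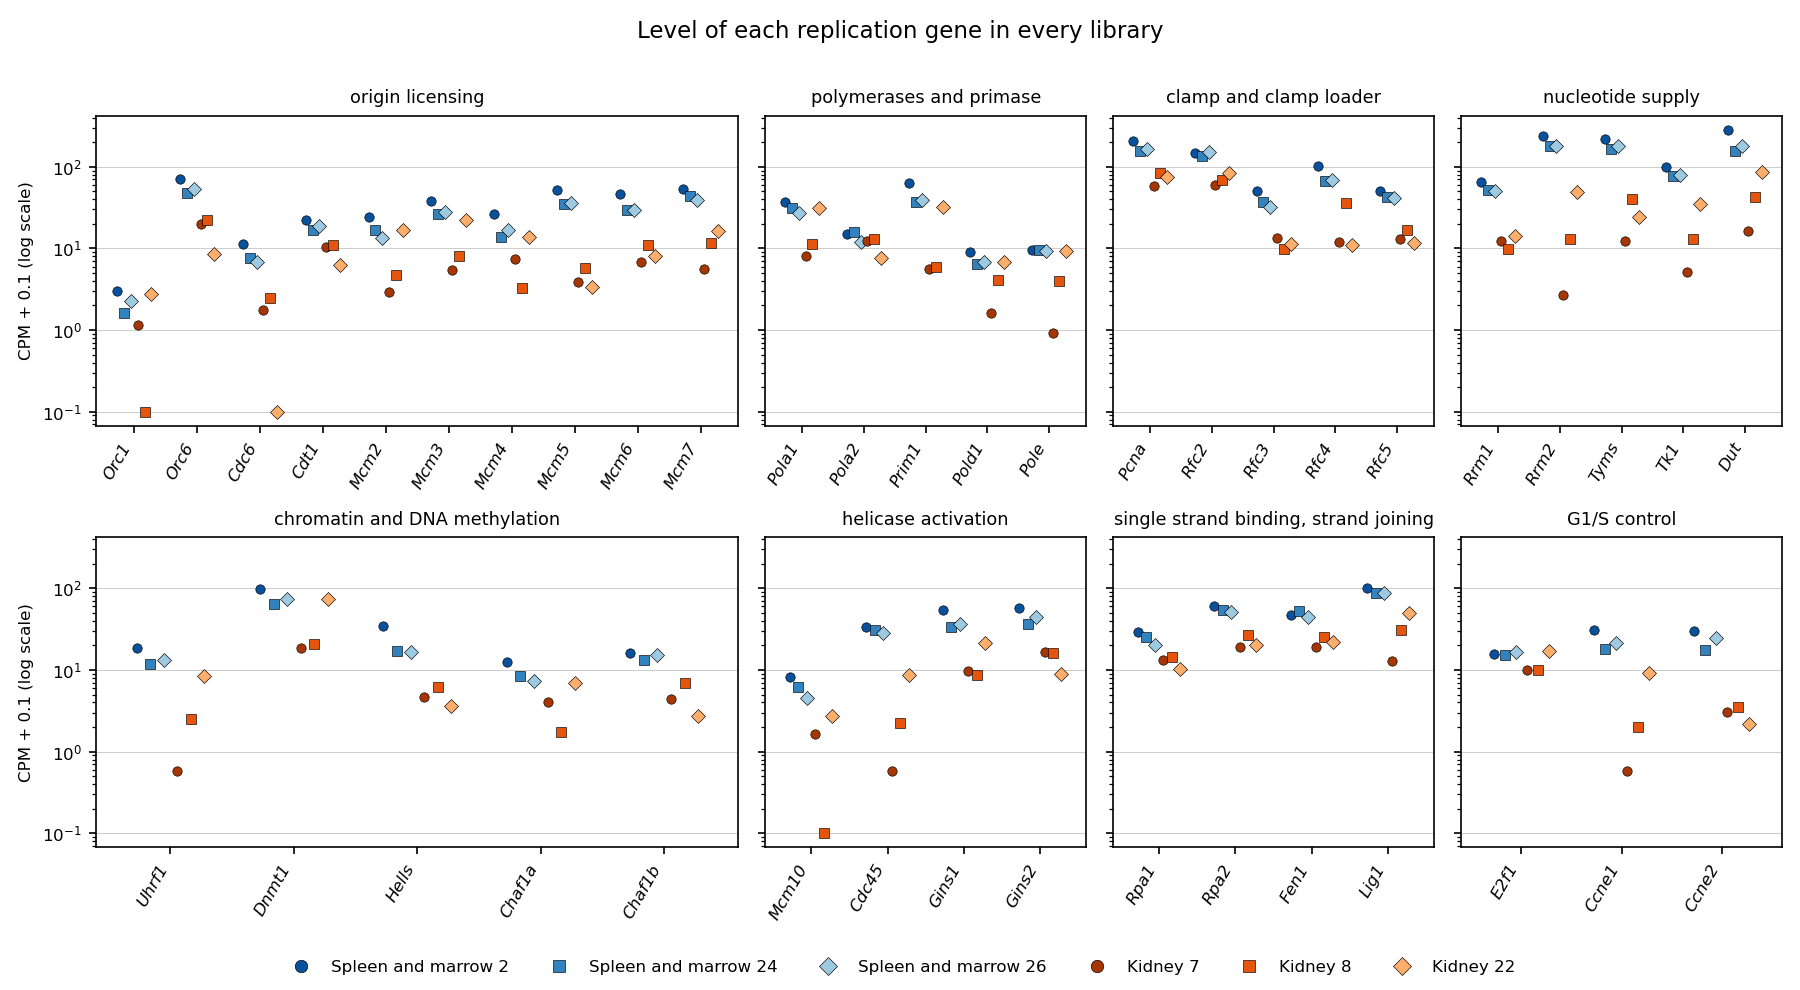
Level of each of the 41 replication genes in every library, by role, as CPM with a small constant added (given on the axis) on a log scale; each point is 1 library. Blue (spleen and marrow) and orange (kidney) points do not overlap for any clamp, loader or nucleotide supply gene, while they do for Pola1, Pola2 and Pold1.

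The call count depended on single libraries. Without kidney 22, the shallowest library, 38 genes were called lower (beside 11.1% of all tested genes): the same 24 and 14 more, with only Orc1, Pola2 and Pold1 uncalled. Without spleen and marrow library 2, 10 were called (beside 1.84% of all genes), without library 24 it was 12 (also beside 1.84%) and without library 26 it was 10 (beside 1.59%). A group of 9 genes, Mcm5, Mcm6, Pcna, Rfc3, Rfc5, Rpa2, Rrm1, Tyms and Ccne2, was called lower in each of 17 alternatives. Among these alternatives, Rfc2 lost its call only without library 26, Hells only without library 2, and Gins2 without either. Orc6, Mcm7, Cdc45, Gins1, Rfc4, Rpa1, Fen1, Lig1, Rrm2, Tk1, Dut and Chaf1b lost theirs without any 1 of the spleen and marrow libraries. Cdc45, Gins1, Rpa1, Lig1, Rrm2, Tk1 and Dut also lost theirs without kidney 8, and Gins1, Rfc4, Rpa1 and Chaf1b without kidney 7.

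**Figure D2:**
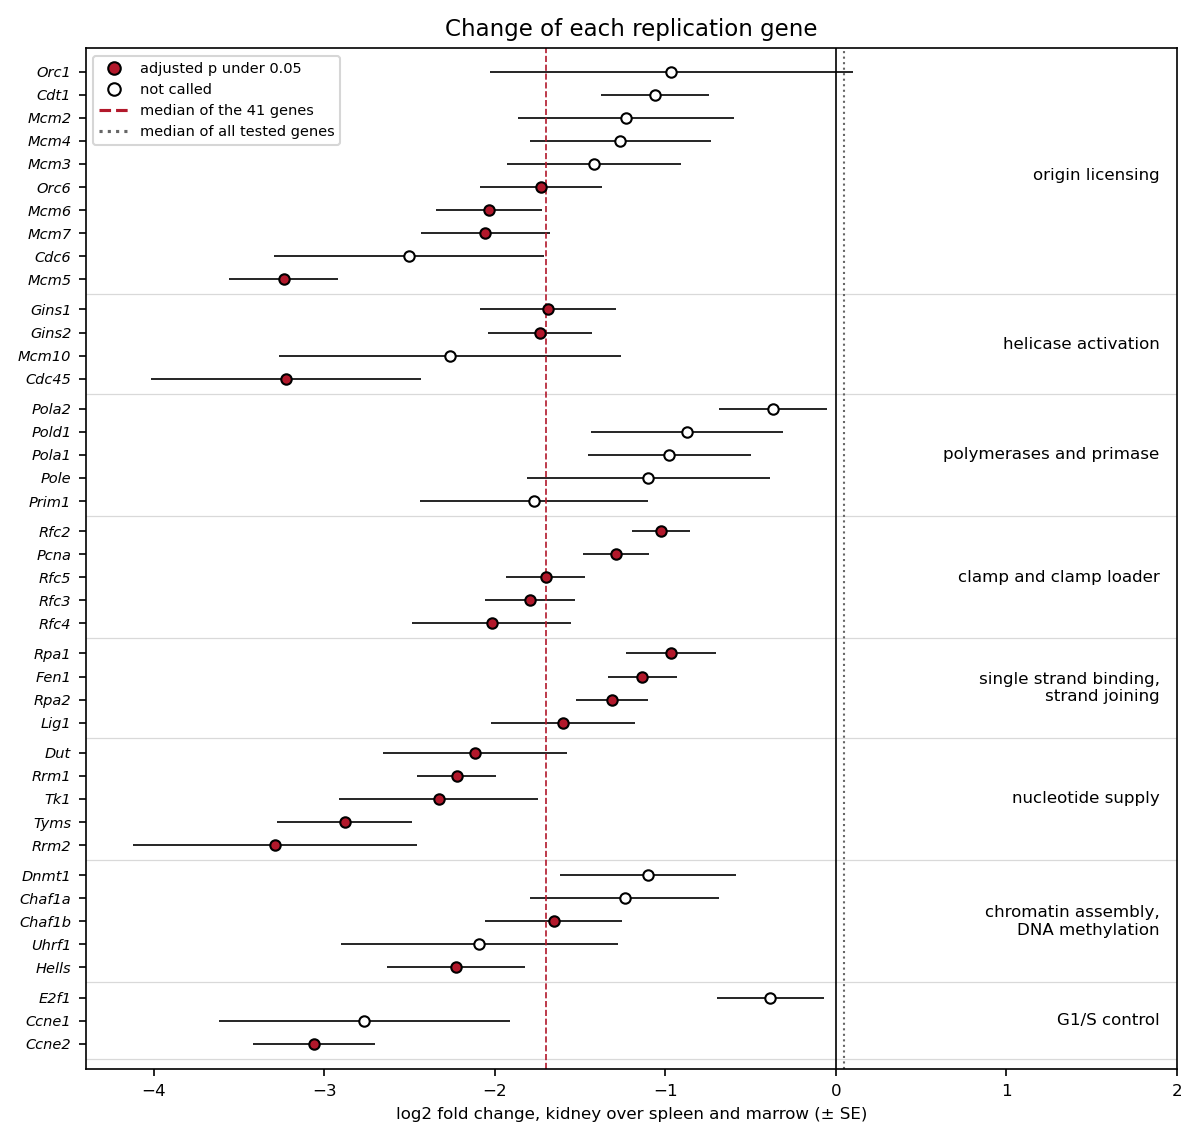
Log2 fold change of each replication gene, kidney over spleen and marrow, with its SE from edgeR; filled points are called at adjusted p under 0.05. All 41 points lie left of zero, and the dashed line at -1.70 is their median, the dotted line at 0.05 that of all tested genes.

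Of the 10 licensing genes, 4 were called lower (median log2 fold change -1.57), beside 5.9% of all tested genes. Among the 4 were 3 of the 6 subunits of the MCM2-7 helicase, which act in a single ring. All 6 subunits were called lower without kidney 22, beside 11.1% of all tested genes. Mcm5 was at 51.8, 35.2 and 35.7 CPM in spleen and marrow 2, 24 and 26 and at 3.79, 5.69 and 3.23 CPM in kidney 7, 8 and 22. Every kidney value was far below every spleen and marrow value, and the fitted level was 9.44-fold lower (log2 fold change -3.24 ± 0.32 SE, edgeR adjusted p = 0.00111). Mcm6 stood at 46.2, 29.5 and 29.5 against 6.75, 10.9 and 7.93 CPM (log2 fold change -2.04 ± 0.31 SE, edgeR adjusted p = 0.00582). Mcm7, the most abundant MCM subunit per length in spleen and marrow (10.6 ± 1.55 FPKM, SD, n = 3), was at 52.8, 43.9 and 39.2 against 5.57, 11.6 and 16.2 CPM, 4.16-fold lower (edgeR adjusted p = 0.0117). The promoter stretches of Mcm5 and Mcm6 printed above each hold overlapping E2F motifs. Mcm7 holds 1 motif before and 1 after its start in 1 window. Of the subunits not called, Mcm3 holds 2 motifs after its start, Mcm2 holds none and Mcm4 had no window. Any link between the motifs and the changes was not tested.

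For Mcm2, Mcm3 and Mcm4, kidney 22 stood apart from kidney 7 and 8. Mcm2 was at 24.2, 16.8 and 13.4 CPM in spleen and marrow and at 2.84, 4.68 and 16.7 CPM in kidney, so that kidney 22 reached into the range of the other group. Mcm3 was at 38.1, 25.99 and 27.9 against 5.33, 7.96 and 22.3 CPM, and Mcm4 at 26.1, 13.8 and 16.8 against 7.35, 3.16 and 13.8 CPM. None of these passed the test (log2 fold changes -1.23 to -1.42, edgeR adjusted p 0.113 to 0.252), and whether the subunits' changes differ from each other was not tested. In kidney 22, Mcm5 and Mcm6 stood at 7.90% and 22.6% of the spleen and marrow mean, and Mcm2 at 92.2%.

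Orc6, a subunit of the origin recognition complex, was at 71.0, 47.1 and 53.4 CPM in spleen and marrow and at 19.8, 22.5 and 8.52 CPM in kidney. It was 3.31-fold lower (log2 fold change -1.73 ± 0.36 SE, edgeR adjusted p = 0.0177). Orc1, the largest subunit of that complex, was near the limit of detection, at 1.505 to 2.87 CPM against 1.07, 0 and 2.64 CPM (edgeR adjusted p = 0.613). The loading factors Cdc6 and Cdt1 had no overlap between groups but missed the threshold. Cdc6 was at 11.1, 7.52 and 6.65 against 1.66, 2.40 and 0 CPM (edgeR adjusted p = 0.0773), and Cdt1 at 22.5, 16.7 and 18.9 against 10.4, 10.9 and 6.17 CPM (edgeR adjusted p = 0.0640). A count of 0 allows up to 0.881 CPM in kidney 22 and 0.379 CPM in kidney 8 (3 counts), for counting error only.

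The helicase activators were called lower in 3 of 4 cases (median log2 fold change -1.9997), and all 4 had log2 fold changes below zero. Cdc45, which joins MCM and GINS in the active helicase, was at 33.4, 30.9 and 28.2 CPM in spleen and marrow and at 0.474, 2.15 and 8.52 CPM in kidney. It was 9.35-fold lower, with a wide error and kidney values far apart (log2 fold change -3.22 ± 0.79 SE, edgeR adjusted p = 0.0340). The GINS subunits were alike in level per length in spleen and marrow (Gins1 23.8 ± 5.51 and Gins2 24.9 ± 5.51 FPKM, SD, n = 3) and in size of change. Gins1 stood at 54.2, 33.5 and 36.4 against 9.60, 8.47 and 21.4 CPM, and Gins2 at 58.0, 36.9 and 44.7 against 16.5, 16.0 and 8.81 CPM. Both groups of values were apart, though kidney 22 was the highest kidney library for Gins1 and the lowest for Gins2. Gins1 was 3.22-fold lower (edgeR adjusted p = 0.0297) and Gins2 3.33-fold lower (edgeR adjusted p = 0.00999). Mcm10, which helps to start unwinding, was low throughout, at 8.15, 6.16 and 4.39 against 1.54, 0 and 2.64 CPM. Its groups did not overlap, but it was not called (log2 fold change -2.26 ± 1.003 SE, edgeR adjusted p = 0.187).

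The polymerases and primase were the only role in which none of the genes (0 of 5) was called, with a median log2 fold change of -0.98. The count was 1 at an unadjusted p under 0.05 and with DESeq2, and 2 with limma-voom. Prim1, the catalytic primase subunit that lays down RNA primers, was the most abundant of the 5 per length (18.5 ± 4.81 FPKM in spleen and marrow, SD, n = 3). It was at 62.9, 36.9 and 39.7 CPM in spleen and marrow and at 5.45, 5.81 and 31.7 CPM in kidney, with kidney 22 near the lower end of the other group (edgeR adjusted p = 0.131). Pola1, the catalytic subunit of polymerase alpha, was at 37.3, 31.5 and 27.1 against 8.06, 11.1 and 30.8 CPM, with overlap of the groups again through kidney 22 (edgeR adjusted p = 0.230). Pola2, its accessory subunit, changed least of the 41 genes, at 15.04, 15.6 and 12.005 against 12.2, 12.9 and 7.64 CPM, with a fitted change of -0.37 ± 0.31 in log2 units (SE, edgeR adjusted p = 0.498). Here kidney 7 and 8 lay inside the spleen and marrow range and kidney 22 below it. The catalytic subunits Pold1 and Pole were low in both groups, at 6.43 to 9.58 CPM in spleen and marrow, and in kidney ran from 1.54 to 6.75 CPM for Pold1 and from 0.830 to 9.10 CPM for Pole.

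Pcna and the loader subunits Rfc2 to Rfc5 fell in 5 of 5 cases, with a median log2 fold change of -1.70. Pcna, the ring that holds polymerases on DNA, was the most abundant of the 41 per length, at 136 ± 23.7 FPKM in spleen and marrow and 53.8 ± 13.1 in kidney (SD, n = 3). Its levels were 209, 154 and 165 CPM in spleen and marrow and 58.8, 82.8 and 74.6 CPM in kidney, 2.45-fold lower (log2 fold change -1.29 ± 0.19 SE, edgeR adjusted p = 0.00549). GENCODE names pseudogenes of Pcna and of Tyms, and how reads shared with near-identical copies were counted is not stated. The loader subunits share the task of opening that ring. Rfc2 was at 147, 134 and 153 against 60.4, 68.7 and 84.9 CPM (log2 fold change -1.02 ± 0.17 SE, edgeR adjusted p = 0.00833), and kidney levels were 41.8% to 58.6% of the spleen and marrow mean. Rfc3, Rfc4 and Rfc5 fell by 1.79, 2.02 and 1.70 on the log2 scale (edgeR adjusted p = 0.00536, 0.0270 and 0.00365). Rfc4 was the least even of them, at 11.9, 35.6 and 10.9 CPM in kidney against 67.6 to 104 CPM. Rfc1, the large subunit of the loader and one of the further pathway genes below, was at 85.1, 68.5 and 66.0 against 54.7, 43.3 and 56.7 CPM and was not called (edgeR adjusted p = 0.122).

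Single strand binding and the joining of Okazaki fragments, the short pieces of the lagging strand, fell in the 4 of 4 genes chosen, with a median log2 fold change of -1.22. Lig1, the ligase that seals the fragments, was at 102, 86.9 and 88.4 CPM in spleen and marrow and at 12.8, 30.5 and 49.6 CPM in kidney (log2 fold change -1.60 ± 0.42 SE, edgeR adjusted p = 0.0431). Rpa2, a subunit of the single strand binding protein RPA, was at 60.4, 53.5 and 50.9 against 19.0, 26.9 and 20.3 CPM (log2 fold change -1.31 ± 0.21 SE, edgeR adjusted p = 0.00723). Its partner Rpa1 was at 28.7, 24.9 and 20.4 against 13.0, 14.3 and 10.3 CPM, the weakest of the 24 calls (edgeR adjusted p = 0.0488) and the only called gene that was less than 2-fold lower. Rpa3, the remaining RPA subunit, is among the further pathway genes and was not called, at 155, 112 and 125 against 42.7, 51.9 and 142 CPM, with overlap through kidney 22 (edgeR adjusted p = 0.308). Rpa1 was called in 5 of the 17 alternatives, and library size scaling without TMM ended the call. Fen1, the flap endonuclease, was at 44.4 to 52.7 against 19.0 to 24.9 CPM (edgeR adjusted p = 0.0102). The library chemistry does not mark strand, and 78.8% of the exon bases of Fen1 are shared with the antisense gene Gm10143 in GENCODE, so reads from the 2 genes cannot be told apart. The same holds for Gins2 (67.3%, with Gse1), Chaf1a (52.5%, with Ubxn6), Ccne2 (17.4%, with Ints8) and Rfc2 (15.1%, with Lat2), and for the other genes the share was at most 12.7% (Rfc4, with Eif4a2).

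Nucleotide supply had the lowest median among the roles with every gene called, -2.33, and all 5 genes fell. Rrm2, the small subunit of ribonucleotide reductase that is made in S phase, was at 239.9, 181 and 180.0 CPM in spleen and marrow and at 2.61, 12.9 and 49.3 CPM in kidney. This was the strongest change of the 41 by size, 9.79-fold lower, and one of the least precise (log2 fold change -3.29 ± 0.83 SE, edgeR adjusted p = 0.0379). Rrm1, the large subunit, was at 64.8, 51.8 and 50.1 against 12.1, 9.73 and 14.1 CPM. Its kidney libraries lay close together and its change was smaller and more certain (log2 fold change -2.22 ± 0.23 SE, edgeR adjusted p = 0.00134). Tyms, which makes thymidylate, was at 220.5, 164 and 179.7 against 12.3, 39.8 and 24.4 CPM, 7.37-fold lower (edgeR adjusted p = 0.00392). Dut, which removes dUTP, was at 284, 157 and 181 against 16.4, 42.8 and 86.6 CPM, and Tk1, the salvage kinase for thymidine, at 98.1, 78.0 and 78.9 against 5.10, 13.0 and 34.7 CPM. For Rrm2, Dut and Tk1 the order of the kidney libraries was the same, 22 over 8 over 7, and the edgeR adjusted p was 0.0379, 0.0386 and 0.0367.

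Of the 5 genes of chromatin assembly and maintenance methylation 2 were called lower, 4 with limma-voom and 5 without kidney 22 (beside 11.1% of all tested genes). Without spleen and marrow library 2 the count was 0, beside 1.84% of all tested genes. It was 1 without library 24 (beside 1.84%), library 26 (beside 1.59%) or kidney 7. Hells, a chromatin remodeller needed for DNA methylation, was at 34.0, 17.0 and 16.7 CPM in spleen and marrow and at 4.62, 6.07 and 3.52 CPM in kidney (log2 fold change -2.23 ± 0.41 SE, edgeR adjusted p = 0.0114). Chaf1b, a subunit of the histone chaperone CAF-1, was at 16.2, 13.0 and 15.1 against 4.27, 6.82 and 2.64 CPM (edgeR adjusted p = 0.0325). For both, kidney 22 was the lowest library. Dnmt1, the maintenance DNA methyltransferase, was at 98.4, 64.2 and 74.5 against 18.2, 20.9 and 73.7 CPM, so that kidney 22 lay within the spleen and marrow range and kidney 7 and 8 at 23.1% and 26.4% of its mean (edgeR adjusted p = 0.210). Uhrf1, which brings Dnmt1 to replicated DNA, had the same order at a lower level, with 18.7, 11.8 and 13.1 against 0.474, 2.40 and 8.22 CPM (edgeR adjusted p = 0.140). Chaf1a was at 7.29 to 12.5 against 1.64 to 6.75 CPM (edgeR adjusted p = 0.191).

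The 3 G1/S genes had fitted levels from 1.30-fold to 8.34-fold lower. Ccne2, one of the cyclin E genes that activate Cdk2, was at 30.3, 17.6 and 24.3 CPM in spleen and marrow and at 2.96, 3.41 and 2.06 CPM in kidney (log2 fold change -3.06 ± 0.36 SE, edgeR adjusted p = 0.00194). Ccne1, the other, was at 30.7, 17.9 and 21.2 against 0.474, 1.896 and 9.10 CPM. It did not overlap between groups and missed the threshold (log2 fold change -2.77 ± 0.85 SE, edgeR adjusted p = 0.0712). E2f1, an activating E2F factor, was at 15.6, 15.3 and 16.6 against 9.84, 9.98 and 17.0 CPM, with kidney 22 above all spleen and marrow libraries (log2 fold change -0.38 ± 0.31 SE, edgeR adjusted p = 0.473). Its level in kidney 7 and 8 was 62.1% and 63.0% of the spleen and marrow mean, and it was called lower without kidney 22.

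The kidney libraries differed among themselves in which replication genes they kept. As a share of the spleen and marrow mean, the median gene stood at 21.8% in kidney 7, 26.4% in kidney 8 and 41.7% in kidney 22. Genes above 50% numbered 4, 6 and 16 of 41. Kidney 22 was the highest kidney library for 23 genes and the lowest for 12, so it was not higher throughout. Against the mean of kidney 7 and 8, its level was 7.68-fold higher for Ccne1, 6.50-fold for Cdc45, 6.37-fold for Rrm2, 5.72-fold for Uhrf1 and 5.63-fold for Prim1. At the other end, the ratio was 0.403 for Orc6, 0.458 for Rfc4 and 0.477 for Chaf1b, and Cdc6 had no count. Counts in this library were few for some of these genes, such as 31 for Ccne1, 28 for Uhrf1 and 9 for Chaf1b, so ratios of low genes carry wide counting error.

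**Figure D3:**
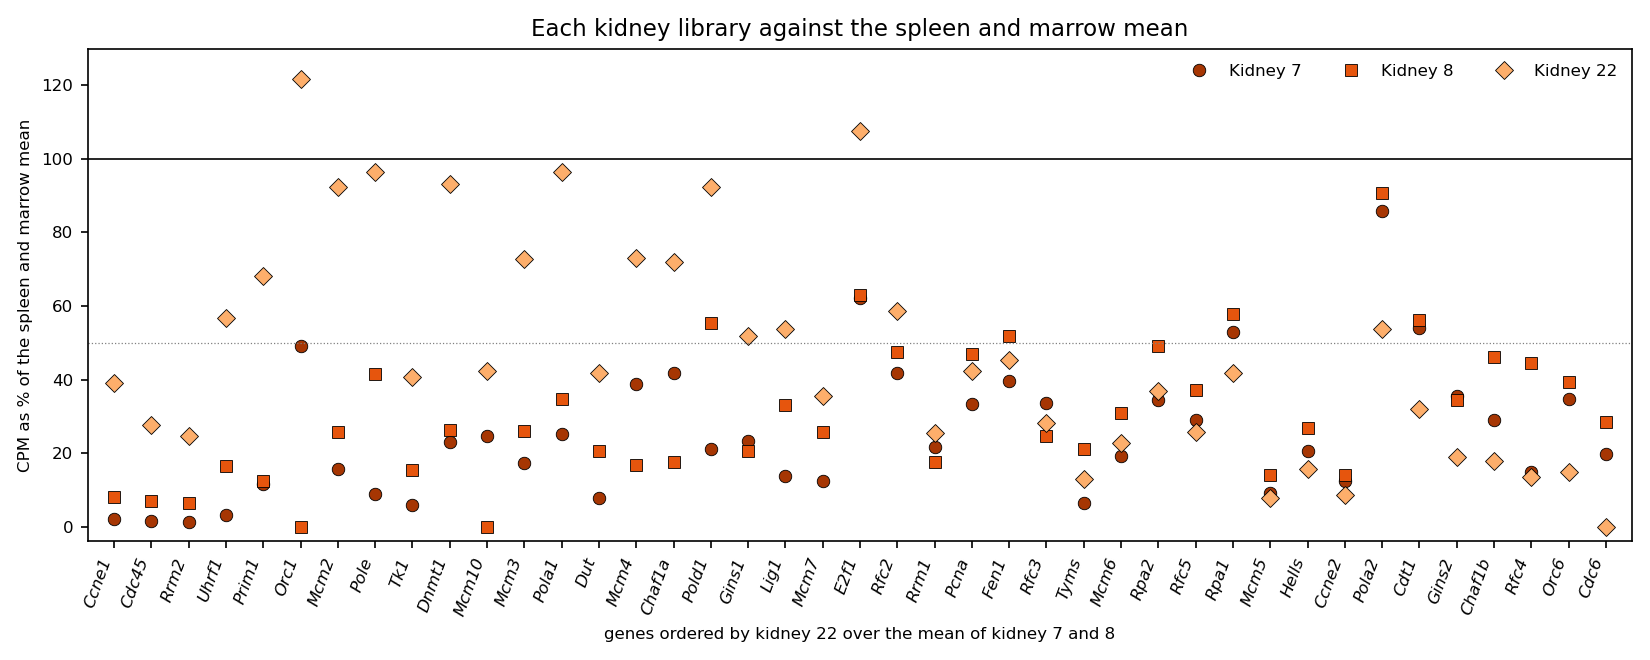
CPM of each replication gene in each kidney library as a percentage of the spleen and marrow mean (solid line at 100, dotted line at 50), with genes ordered by kidney 22 over the mean of kidney 7 and 8. Kidney 22 stands near the spleen and marrow mean for Mcm2, Pole, Dnmt1, Pola1, Pold1 and E2f1 and near or below the other kidney libraries for Mcm5, Hells, Ccne2, Orc6 and Cdc6.

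Summed granulocyte precursor markers ranked the kidney libraries in the order of their replication sums, but did not do so for the spleen and marrow libraries. The sum of 10 such markers was 8901, 9694 and 10463 CPM in spleen and marrow and 243, 1171 and 14360 CPM in kidney 7, 8 and 22, so kidney 22 was above every other library. Ngp, a secondary granule gene, was at 8146 CPM in kidney 22 against 2456 to 4672 in spleen and marrow, and Camp at 5261 against 1921 to 2959 CPM. The genes of earlier precursors were lower in all kidney libraries: Elane was at 2.37, 25.7 and 245 CPM in kidney 7, 8 and 22 against 1078 to 1727, and Mpo at 0.119, 1.14 and 37.3 against 221 to 357 CPM. Elane, Mpo, Prtn3, Ctsg and Ms4a3 did not overlap between groups and had fitted levels 12.5-fold to 24.2-fold lower in kidney, of which Prtn3 and Ctsg were called (edgeR adjusted p = 0.00400 and 0.0485). Bulk libraries do not show which cells carried these transcripts, so granulocyte and monocyte precursors cannot be told apart by them. The part of such cells in the levels of kidney 22, and in the difference between the groups, was not tested. The count of 38 replication genes called lower without kidney 22 (beside 11.1% of all tested genes) cannot show that part. The remaining kidney marker sums, 243 and 1171 CPM, also lay below every spleen and marrow sum. The sum of 8 stem and progenitor markers was 23.4, 40.4 and 37.8 CPM in spleen and marrow and 60.6, 100.5 and 6.75 CPM in kidney 7, 8 and 22. Flt3 made up most of it in kidney 7 (52.1 CPM), and Cd34 and Flt3 did in kidney 8 (53.1 and 21.7 CPM). Kit was at 0 to 3.16 CPM in all libraries. Cd34 was at 2.84 and 0 CPM in kidney 7 and 22. Endothelial markers summed to 799 CPM in kidney 8, against 3.15 to 21.3 in the other libraries. The part of endothelial RNA in the Cd34 value was not tested. In kidney 22, the shallowest library, 6 of the 8 stem and progenitor markers had no count. There, 3 counts correspond to 0.881 CPM. In spleen and marrow, Gata2, Sox4, Hoxa9 and Erg averaged only 0.533 to 0.942 CPM, and Cd34 and Myb 1.83 and 4.91 CPM. Of the 3 stem and progenitor markers tested, 1 was called, Myb. It was at 5.40, 4.92 and 4.39 CPM in spleen and marrow and at 0.474, 1.01 and 0 in kidney (edgeR adjusted p = 0.0368). An erythroid list of 8 summed to 6.75 to 10.1 against 1.47 to 11.2 CPM. The highest kidney sum, in kidney 8, was mostly Alas2 (8.97 CPM). Of the 8 erythroid markers, 6 were lower in every kidney library than in every spleen and marrow library, beside 18.8% of all tested genes. Klf1, Gata1, Car1, Hemgn and Rhag had no count in kidney. In spleen and marrow, Klf1, Gata1, Hemgn and Rhag had only 1 to 9 counts per library and were not tested, so their separation rests on few reads. Of the 3 erythroid markers tested, 1 was called lower, Car1. It had 29, 11 and 20 counts in spleen and marrow 2, 24 and 26 (edgeR adjusted p = 0.0190). The part of these cells was not tested either.

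**Figure D4:**
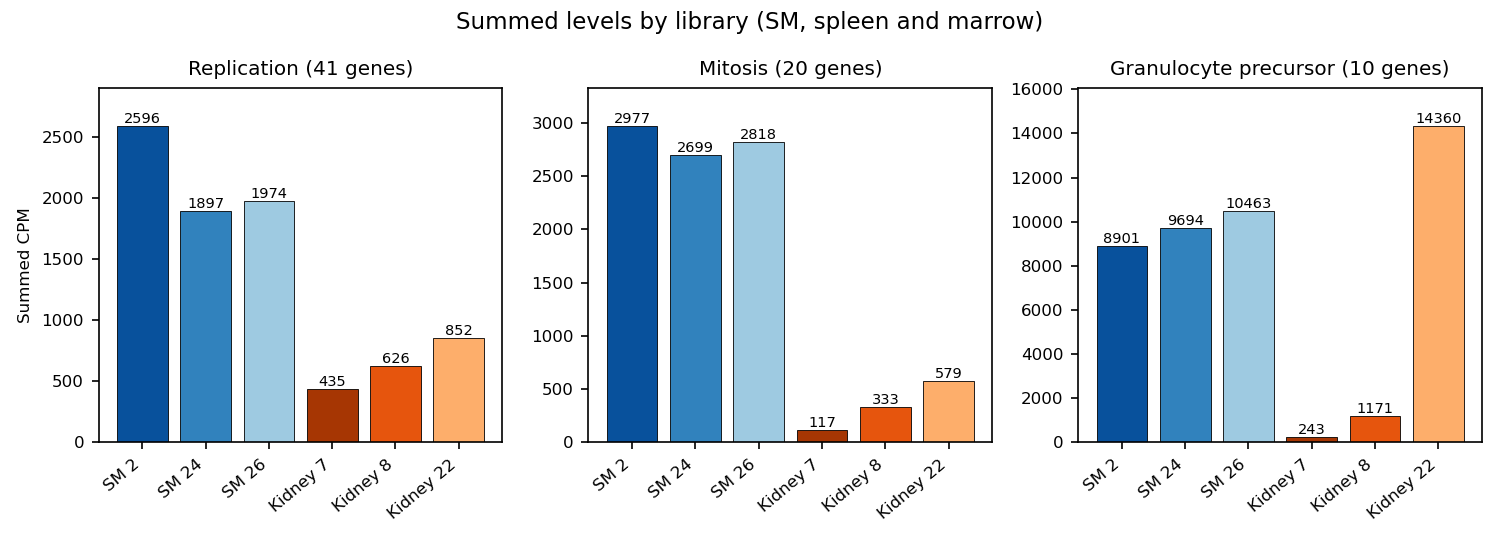
Summed CPM per library (bars, from 0) of the 41 replication genes, the 20 mitosis genes and the 10 granulocyte precursor markers, each on its own axis. Replication and mitosis sums are lower in every kidney library, while the granulocyte precursor sum is lowest in kidney 7 (243) and highest in kidney 22 (14360).

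Within spleen and marrow, library 2 had the highest level of the 3 for 36 of the 41 genes. Its replication sum was 2596 CPM against 1897 and 1974, where the mitosis sums lay closer (2977 against 2699 and 2818 CPM). Elane (1727 against 1078 and 1162 CPM) and Ctsg (707 against 290.2 and 314 CPM) were also highest in library 2, and Ngp was lowest there. Dut, for example, was at 284 against 157 and 181 CPM. Fold changes stayed negative for all 41 genes without library 2, with a median of -1.56.

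Mitosis genes were lower in kidney by more than replication genes. Of the 20, 19 were called lower (beside 5.9% of all tested genes), all but Ube2c (edgeR adjusted p = 0.0674), with a median log2 fold change of -3.10. The summed replication level was 0.701 to 0.872 of the mitosis sum in spleen and marrow and 3.72, 1.88 and 1.47 times it in kidney 7, 8 and 22, with no overlap. Kidney levels of the median mitosis gene were 5.04%, 12.02% and 17.4% of the spleen and marrow mean, and no mitosis gene exceeded 50% in any kidney library. The difference between the lists is given by these values and was not tested.

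Of 85 further genes of the same pathway, all had a row and 80 passed the filter on low counts. Among these 80, 25 were called lower (31.2%) and 3 called higher, with a median log2 fold change of -0.75. Of the 80 log2 fold changes, 64 lay below zero. Over all tested genes 5.9% were called lower and 7.83% higher, and these shares also stand beside the counts by list below. In those counts, fell and rose mean called lower and called higher. The origin recognition subunits Orc2, Orc4 and Orc5 had log2 fold changes of 0.29, 0.10 and 0.09 with overlapping groups, beside the lower Orc6. Orc3 had a log2 fold change of -0.55, also with overlapping groups, and was not called (edgeR adjusted p = 0.320). Of 8 other licensing factors 1 fell, Gmnn, the Cdt1 inhibitor geminin, from 212, 164 and 176 to 32.2, 59.6 and 65.8 CPM (edgeR adjusted p = 0.00564). Of 14 origin firing and fork factors 7 fell, and 1 (Dbf4) remained called when any 1 of the spleen and marrow libraries was left out. The smallest p-value was that of Dbf4, the activator of the Cdc7 kinase, which was at 38.7 to 40.4 against 6.75 to 12.9 CPM (edgeR adjusted p = 0.00577). Ticrr (treslin) and Chtf18 also fell, with larger fitted changes (18.9-fold and 8.42-fold), from levels of 3.56 to 7.11 CPM to at most 0.587 CPM (edgeR adjusted p = 0.00951 and 0.0133). Both lost their calls without any 1 of the spleen and marrow libraries.

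Of 13 other polymerase, loader and strand joining subunits 3 fell. The ribonuclease H2 subunits Rnaseh2c and Rnaseh2b, which remove ribonucleotides from DNA, had log2 fold changes of -1.38 ± 0.13 and -1.61 ± 0.17 SE (edgeR adjusted p = 0.00109 and 0.00136). The catalytic subunit Rnaseh2a was not called, at 78.6, 72.2 and 73.6 against 48.5, 51.2 and 81.0 CPM, with overlapping groups (edgeR adjusted p = 0.399). Pold2, an accessory subunit of polymerase delta, was at 43.5, 27.2 and 27.1 against 12.1, 14.5 and 10.9 CPM (edgeR adjusted p = 0.0175, lost without any 1 of the spleen and marrow libraries). Of 11 other nucleotide genes 4 fell, among them Dctpp1 and Dtymk, with log2 fold changes of -1.03 and -1.25 (edgeR adjusted p = 0.0116 and 0.0136). The call of Dtymk was lost without spleen and marrow library 2 or 26. Samhd1, which degrades deoxynucleotides in resting myeloid cells, was at 279.9, 392 and 401 against 284, 367 and 324 CPM. Its log2 fold change was -0.14 ± 0.18 SE, with overlapping groups (edgeR adjusted p = 0.669). Of 7 histone chaperones 4 fell, among them Nasp and Asf1b with log2 fold changes of -1.93 and -2.70 (edgeR adjusted p = 0.00737 and 0.0128). Rbbp4, shared by CAF-1 and other complexes, was at 193 to 195 against 91.5 to 151 CPM (edgeR adjusted p = 0.0460). Asf1b lost its call without any 1 of the spleen and marrow libraries, and Rbbp4 without any 1 library except kidney 22.

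The regulators of the G1/S switch moved in both directions. Of 22 E2F, RB and CDK control genes 5 fell and 3 rose. Ccnd3, a D-type cyclin, was at 296, 285 and 294 CPM in spleen and marrow and at 107, 102 and 115 CPM in kidney, with libraries of a group close together (log2 fold change -1.43 ± 0.13 SE, edgeR adjusted p = 0.000828). Its relative Ccnd2 was higher in kidney, at 11.1, 7.11 and 8.15 against 47.0, 82.6 and 83.4 CPM, 8.03-fold (log2 fold change 3.01 ± 0.31 SE, edgeR adjusted p = 0.00128). Ccnd1 was at 0.919, 1.09 and 0.965 against 8.89, 55.0 and 6.75 CPM (edgeR adjusted p = 0.0151), and its highest value was in kidney 8, where 8 endothelial markers summed to 799 CPM against 3.15 to 21.3 in the other libraries. The part of endothelial RNA in that value was not tested. The call of Ccnd1 was lost without any 1 of the spleen and marrow libraries. Without kidney 8 it was kept, with edgeR adjusted p = 0.0167. Myc, a growth-promoting transcription factor, rose from 8.61, 5.88 and 7.40 to 20.4, 23.6 and 22.3 CPM (edgeR adjusted p = 0.00983), a call that was lost without spleen and marrow library 24 or 26.

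Cdk4, the kinase partner of the D-type cyclins, fell from 200.3, 140.2 and 142 to 61.7, 79.9 and 76.6 CPM (edgeR adjusted p = 0.00954). Ccna2, the cyclin of S phase and G2, fell from 141, 134 and 131 to 9.72, 22.1 and 31.7 CPM (edgeR adjusted p = 0.00443). Of 5 tested CDK inhibitors 1 fell, Cdkn2d, from 26.5, 25.0 and 23.7 to 6.64, 5.18 and 9.10 CPM (edgeR adjusted p = 0.00688, lost without spleen and marrow library 2). Cdkn1a, which encodes the inhibitor p21 and was the most abundant inhibitor transcript by FPKM (79.8 ± 17.0 in spleen and marrow and 98.2 ± 57.7 in kidney, SD, n = 3), was at 439, 302 and 316 against 419, 642 and 253 CPM. Its groups overlapped (log2 fold change 0.31 ± 0.32 SE, edgeR adjusted p = 0.578). Rb1 was at 25.4 to 28.0 against 16.4 to 26.4 CPM (edgeR adjusted p = 0.542).

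**Figure D5:**
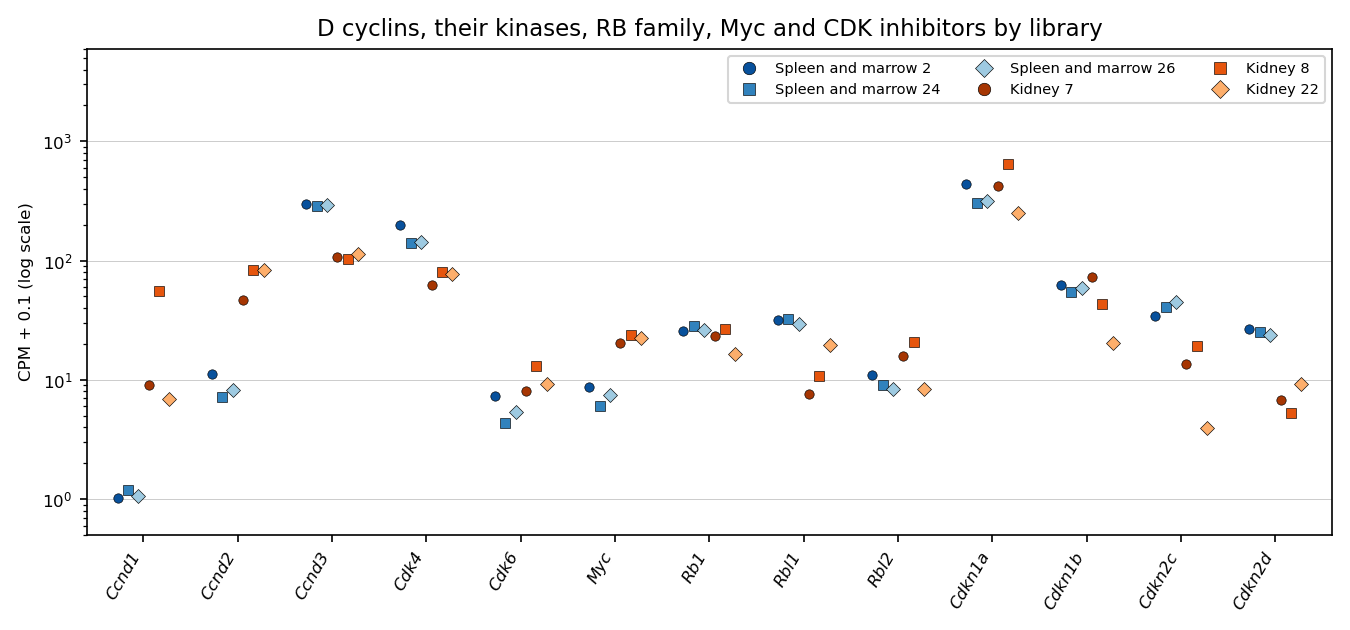
CPM, with a small constant added (given on the axis), on a log scale for D cyclins, their kinases, RB family genes, Myc and CDK inhibitors; each point is 1 library. Ccnd3 and Cdk4 are lower and Ccnd2, Ccnd1 and Myc higher in every kidney library, and Ccnd1 is highest in kidney 8 (55.0 CPM).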

How the data were processed

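RNA was measured by bulk sequencing in 6 libraries, made from 2 ng of RNA with SMART-Seq v4 and ThruPLEX reagents per the labels' protocols. The deposited values are whole-number counts per gene symbol and FPKM, both made by the authors. The submitters' processing notes list the tools STAR 2.5, Cufflinks 2.2.1 and bcl2fastq 2.18 beside the mouse build mm9, without saying what each did. The counting program and the annotation were not named in the labels or file headers (not given in the sources used here). In the counts, 27 symbols had become dates, 2 symbols were duplicated and 92 spike-in rows held none.

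Counts were tested in R 4.3.3 with edgeR 4.0.16 (filterByExpr, TMM, glmQLFit and glmQLFTest, two-sided), after checks on simulated data. The adjustment ran over all 10626 tested genes, and the SE is the log2 fold change divided by the square root of F. FPKM served to compare levels between genes and as an alternative. The deposited FPKM did not always follow the counts. Lyz2 had 0 FPKM in spleen and marrow 26 with 502608 counts, and Orc1 had 0 FPKM in kidney 22 with 9 counts. Rfc2 in kidney 22 and 7 was at 19.9 and 20.7 FPKM but at 84.9 and 60.4 CPM. DESeq2 1.42.0, limma 3.58.1 (voom and trend), other scalings and filters, thinning, and leaving out each library were tried. Nothing in the labels pairs the libraries. Replicates 24 and 26 were close to each other, so they were also summed.

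The genes and lists were chosen with earlier results of these data known. Values per library were given for the 2 most abundant genes of each role, genes whose call differed within it, and the largest and smallest changes. Up to 3 called genes per direction were named in each pathway list. 1 gene that this rule names is not reported here. 1 listed gene, Supt16h, was matched to its row Supt16 through RefSeq synonyms. Other named genes, including Rfc1, Rpa3, Rnaseh2a, Orc2, Orc3, Orc4, Orc5, Samhd1, Rb1 and Cdkn1a, were chosen after their values were seen. Promoter windows were missing for 6 of the 41 genes. Figures were drawn with matplotlib 3.10.9.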

Additional observations from a re-analysis of the deposited data

How the results depend on the processing

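Leaving out 1 library moved the count of replication genes called lower, 24, to between 10 and 38, and that of the other pathway genes, 25 lower and 3 higher, to between 9 and 41 and between 1 and 6. The share of all tested genes called lower moved too, to 1.59% without spleen and marrow library 26 and 11.1% without kidney 22. With spleen and marrow libraries 24 and 26 summed, 12 replication genes and 12 other pathway genes were lower and 1 was higher. At adjusted p under 0.01, 11 replication genes and 10 other pathway genes were lower. The other tests, scalings, filters, units and thinning gave 23 to 33 replication genes lower. The highest counts, 31 and 33, came from the FPKM scales, where FPKM did not always follow the counts, and Orc1 was called only there. On the log2(FPKM + 0.1) scale the median of all tested genes moved to -0.14 and that of the replication genes was -1.87. In each setting no replication gene was called higher, and all that were tested had fold changes below zero. Of the 41 genes, 9 were called lower in all 17 alternatives to the fit, and Pola2 and Pold1 in none. With 2 libraries left in a group, fewer samples set the spread, and kidney 22 had the fewest counts, so levels of the low genes Orc1, Cdc6 and Mcm10 rest on few counts. No paired analysis was possible because the groups share no replicate numbers.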
